A study of Rattus norvegicus with 6 samples.

Results

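The 10 genes described here mark successive steps of adipogenesis, the conversion of mesenchymal progenitors into fat cells, and were taken by symbol from the 22085 genes of the deposited table. They are the transcription factor genes Cebpb, Cebpd, Zfp423, Pparg and Cebpa and the lipid-handling or secreted products Fabp4, Cd36, Lpl, Plin2 and Adipoq. All 10 were in the table, and 9 of them passed the filter on low counts that left 15776 genes to be tested. RNA came from amniotic fluid cells of rats (Rattus norvegicus), labelled mesenchymal stem cells, collected on embryonic day 18.5, grown in culture and harvested at passage 4. The control group held 3 libraries from control pregnancies and the preeclampsia group 3 libraries from a rat model of preeclampsia, the pregnancy disorder of maternal hypertension. How the model was made, the strain, the age of the dams and how many animals each library holds are not given in the sources used here, so p-values measure the spread between these libraries. Both groups were cultured alike in DMEM/F12 medium with fetal bovine serum and antibiotics, and the protocol in the labels names no adipogenic inducer.

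In adipogenesis as it is known from cultured progenitors, the C/EBP factors encoded by Cebpb and Cebpd come on first and help to switch on Pparg and Cebpa. PPAR gamma, the product of Pparg, and C/EBP alpha then maintain each other and activate genes of fatty acid uptake, lipid storage and secretion. Several of the later genes are not restricted to fat: Cd36, Fabp4, Lpl, Plin2 and Pparg are also used by macrophages, and Cd36 and Fabp4 by capillary endothelium.

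The promoters of 3 of the transcription factor genes are printed because the counts below set 1 early factor, Cebpb, apart from the pair that follows it. The sequences are RefSeq's, in build GRCr8, on the plus strand, 5′ to 3′, and end at the base before the annotated start. Pparg has 2 listed starts, shown with 250 bases each, while Cebpa and Cebpb are shown with 150 bases. The windows of Pparg are chr4:150096808-150097057 and chr4:150154522-150154771, and the windows of Cebpa and Cebpb are chr1:96896434-96896583 and chr3:176816855-176817004. Capitals mark a C/EBP motif in the second Pparg window and a TATA box in those of Cebpa and Cebpb.
Pparg, first start: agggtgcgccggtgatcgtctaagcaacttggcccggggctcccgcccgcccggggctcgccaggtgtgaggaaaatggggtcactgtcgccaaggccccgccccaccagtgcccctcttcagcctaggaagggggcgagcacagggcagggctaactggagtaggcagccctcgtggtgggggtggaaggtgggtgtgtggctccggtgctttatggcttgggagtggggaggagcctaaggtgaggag
Pparg, second start: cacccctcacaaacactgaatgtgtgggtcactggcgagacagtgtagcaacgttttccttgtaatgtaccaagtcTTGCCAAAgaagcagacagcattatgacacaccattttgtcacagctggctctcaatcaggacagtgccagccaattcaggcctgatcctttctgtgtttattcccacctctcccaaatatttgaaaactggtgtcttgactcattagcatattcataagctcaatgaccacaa
Cebpa: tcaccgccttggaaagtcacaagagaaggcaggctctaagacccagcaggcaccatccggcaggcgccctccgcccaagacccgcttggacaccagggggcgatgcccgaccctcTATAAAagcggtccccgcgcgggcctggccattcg
Cebpb: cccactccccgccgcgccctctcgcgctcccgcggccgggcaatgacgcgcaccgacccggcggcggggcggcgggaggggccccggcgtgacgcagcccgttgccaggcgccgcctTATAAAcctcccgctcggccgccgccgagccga

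RefSeq's promoter table held 8 windows for 6 of the 10 genes, those of Adipoq, Cd36, Cebpa, Cebpb, Plin2 and Pparg, each with 250 bases before and 50 after the start. Both strands were searched. The C/EBP motif TTGCNNAA was found in 1 of the 8 windows, the second of Pparg, as TTGCCAAA from base -174 to base -167 before the start, against 10.6% of all 33469 windows. The C/EBP palindrome TTGCGCAA, which also matches that motif, was in 0 of 8 and in 0.17% of all windows. The PPAR/RXR core AGGTCA was in 0 of 8 against 16.2%, and its direct repeat with 1 base between the copies in 0 of 8 against 0.0538%. The letters TATAAA of the TATA box, a motif added after the sequences were seen, were in 4 of 8 against 14.2%. Both shares count a match anywhere in the window and on either strand, not only where a TATA box acts. In Cebpa and Cebpb the match lay on the plus strand at -35 to -30 and -33 to -28. In Cd36 it lay on the opposite strand at -175 to -170, and at the first Pparg start on the opposite strand, 28 to 33 bases past the start. These are matches of letters and not measured binding sites. The deposited counts are given per gene, so the 2 starts of Pparg cannot be told apart in the values that follow.

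Levels are given in the deposited FPKM, counts scaled by library size and by a length for each gene, in library order 1, 2 and 3 of each group. Fold changes are log2 ratios of preeclampsia over control from edgeR's quasi-likelihood test, with their standard error (SE) and a p-value adjusted by the Benjamini-Hochberg method over the 15776 genes. The threshold for a call was an adjusted p of 0.05. Total counts ran from 48402185 to 59193961 per library, and the spread between libraries set the precision, with a median SE of 0.26 over all genes.

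None of the adipogenic genes differed between the groups beyond the spread of the libraries. edgeR called 0 of the 9 tested genes, in a comparison in which it called 0% of all genes tested, and 0 of the 9 had an unadjusted p under 0.05, against 9.19% of all genes. DESeq2 also called 0 of the 9 for which it gave an adjusted p, against 1.71% of all genes with one. The 3 libraries of one group overlapped the 3 of the other in all 9, while 15.6% of all tested genes had groups that did not overlap on CPM (counts scaled to library size by TMM), the scale used for such counts. The fold change was above 0 in 8 of 9, all but Pparg, against 51.7% of all genes, with a median of 0.48 against 0.01 for all genes.

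**Figure D1:**
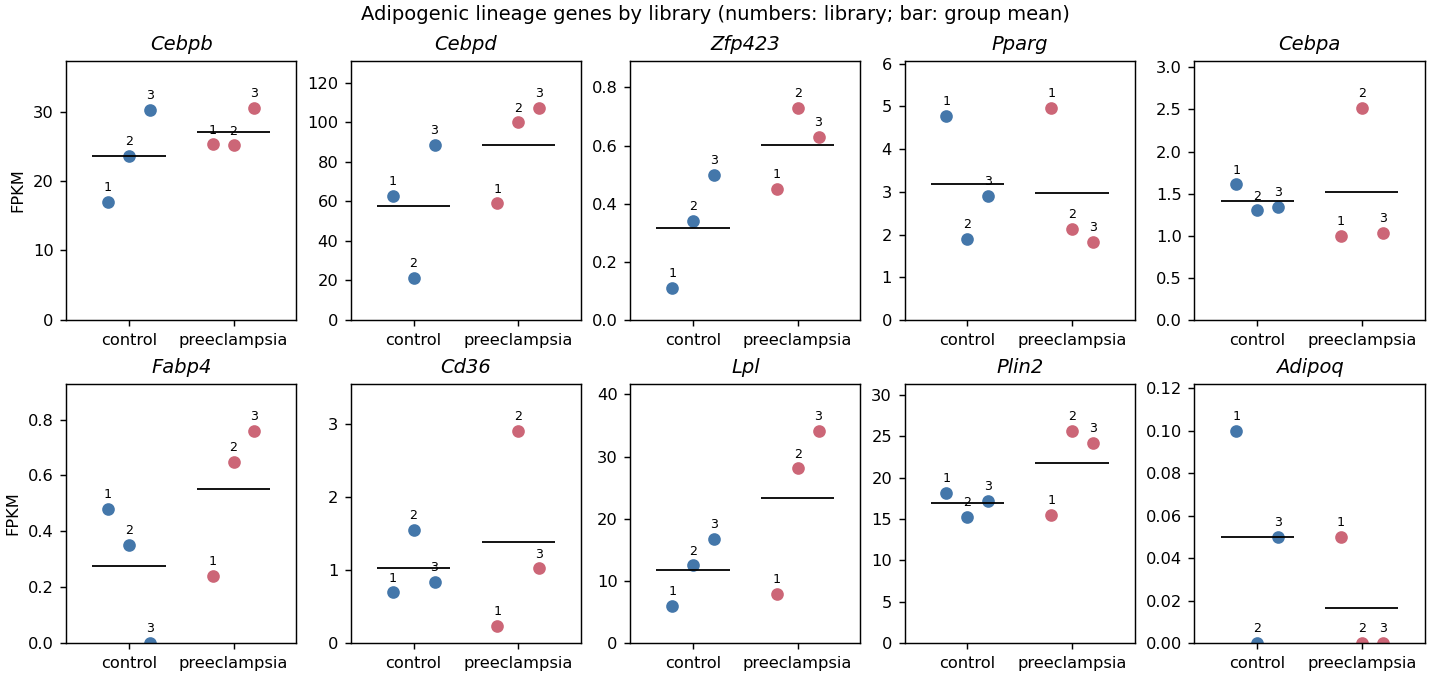
FPKM of each of the 10 genes (vertical axes, each from 0) in the 3 control and 3 preeclampsia libraries; each point is 1 library, labelled by its number, and the bar is the group mean. The groups overlap in every panel, and preeclampsia libraries 2 and 3 are the highest in Cebpd, Zfp423, Fabp4, Lpl and Plin2.

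Among the early factors, Cebpb was the steadiest. Cebpb (chr3:156398035-156399466), whose product is induced early by hormonal and inflammatory signals, stood at 17.03, 23.64 and 30.31 FPKM in the control libraries and 25.30, 25.16 and 30.58 in the preeclampsia libraries. Preeclampsia libraries 1 and 2 lay within the control range and library 3 just above it, and the highest of the 6 values was 1.80 times the lowest. Group means were 23.7 ± 6.64 and 27.0 ± 3.09 (SD, n = 3 each), a log2 fold change of 0.22 (SE 0.20, edgeR adjusted p = 0.815).

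Cebpd (chr11:84764670-84765808), the partner that is induced alongside it, had the highest FPKM of the 10 genes in 5 of the 6 libraries. It stood at 62.58, 21.35 and 88.59 FPKM in the control libraries and at 58.88, 99.87 and 107.27 in the preeclampsia libraries. Control library 2 was low, below Cebpb in the same library, and preeclampsia libraries 2 and 3 were above every control library. The means were 57.5 ± 33.9 and 88.7 ± 26.1 FPKM (SD, n = 3 each), a log2 fold change of 0.65 (SE 0.52, edgeR adjusted p = 0.778).

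Zfp423 (chr19:19111538-19407371), a zinc finger factor that commits progenitors to the fat lineage and promotes Pparg expression, was under 1 FPKM in every library. It stood at 0.11, 0.34 and 0.50 FPKM in the control libraries and 0.45, 0.73 and 0.63 in the preeclampsia libraries. Control library 1 was the lowest, and preeclampsia library 1 lay between control libraries 2 and 3. The log2 fold change was 0.98 (SE 0.53, edgeR adjusted p = 0.653). Its counts of 100 to 817 were not low beside those of Pparg (90 to 262) and Cebpa (92 to 272), and its FPKM rests on a long length, given with the order of the levels.

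The factors at the centre of the programme, Pparg and Cebpa, stood below 5 FPKM in every library of both groups. Pparg (chr4:148423102-148548471) stood at 4.78, 1.89 and 2.90 FPKM in the control libraries and 4.97, 2.13 and 1.82 in the preeclampsia libraries. Library 1 was the highest within each group, and the other 4 lay between 1.82 and 2.90. The means were 3.19 ± 1.47 and 2.97 ± 1.74 FPKM (SD, n = 3 each), and the log2 fold change was -0.11 (SE 0.52, edgeR adjusted p = 0.966). Leaving out control library 1, preeclampsia library 2 or preeclampsia library 3 turned that direction, giving 0.35, 0.06 and 0.14.

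Cebpa (chr1:87759631-87762303), whose product sustains Pparg and confers insulin sensitivity on fat cells, stood at 1.61, 1.30 and 1.34 FPKM in the control libraries and 1.00, 2.52 and 1.03 in the preeclampsia libraries. The control libraries were close to each other, while preeclampsia library 2 was above and the other two preeclampsia libraries below all of them. The log2 fold change was 0.14 (SE 0.45, edgeR adjusted p = 0.945), and without preeclampsia library 2 it was -0.45.

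Of the genes that act on fatty acids, the extracellular lipase and the droplet coat protein were plainly measured, while the carrier and the uptake receptor were near the lower end. Lpl (chr16:20830055-20853855) encodes lipoprotein lipase, which releases fatty acids from circulating triglycerides. It stood at 5.96, 12.47 and 16.80 FPKM in the control libraries and 7.92, 28.08 and 34.14 in the preeclampsia libraries. Preeclampsia libraries 2 and 3 exceeded every control library, and preeclampsia library 1 was below control libraries 2 and 3. Means of 11.7 ± 5.46 and 23.4 ± 13.7 FPKM (SD, n = 3 each) gave a log2 fold change of 1.05 (SE 0.60, edgeR adjusted p = 0.676).

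Plin2 (chr5:101156643-101211738), which coats lipid droplets in most cell types, was even among the controls, at 18.14, 15.28 and 17.20 FPKM. In the preeclampsia libraries it stood at 15.47, 25.66 and 24.22 FPKM, library 1 within the control range and libraries 2 and 3 above it. The log2 fold change was 0.39 (SE 0.23, edgeR adjusted p = 0.680), the means being 16.9 ± 1.46 and 21.8 ± 5.51 FPKM (SD, n = 3 each).

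Cd36 (chr4:17317343-17410084), a scavenger receptor that takes up fatty acids and oxidised lipoproteins, varied most of the 8 genes with counts in every library. It stood at 0.69, 1.54 and 0.84 FPKM in the control libraries and 0.23, 2.90 and 1.02 in the preeclampsia libraries. The highest and the lowest values were both in the preeclampsia group and differed 12.6-fold. The log2 fold change was 0.48 (SE 0.86, edgeR adjusted p = 0.908), and without preeclampsia library 2 it was -0.70.

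Fabp4 (chr2:91580858-91585578), the cytosolic fatty acid carrier that is abundant in fat cells, was close to the floor of detection. It was listed at 0.48, 0.35 and 0 FPKM in the control libraries and 0.24, 0.65 and 0.76 in the preeclampsia libraries, from 0 to 23 counts. The 0 in control library 3 allows up to 0.0582 CPM by the library total, taking 3 counts as the limit. The log2 fold change of 1.01 had a wide error (SE 1.16, edgeR adjusted p = 0.854), and it was 0.43 without control library 3 and 1.68 without control library 1.

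Adipoq (chr11:77721912-77735644), which encodes the fat cell hormone adiponectin, was not tested. It had 7, 0 and 4 counts in the control libraries and 4, 0 and 0 in the preeclampsia libraries, and its highest value was 0.10 FPKM. The counts of 0 allow 0.0579 CPM in control library 2 and 0.0507 and 0.0620 in preeclampsia libraries 2 and 3, for counting error only. Multiples of 4 made up 35.1% to 38.0% of the counts from 1 to 15, where an even spread would give 20%, so small counts may not be single fragments. Plin1, which coats the droplets of mature fat cells, had no count in any library, and Cidec, a droplet fusion protein, reached 0.04 FPKM in 1 library.

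**Figure D2:**
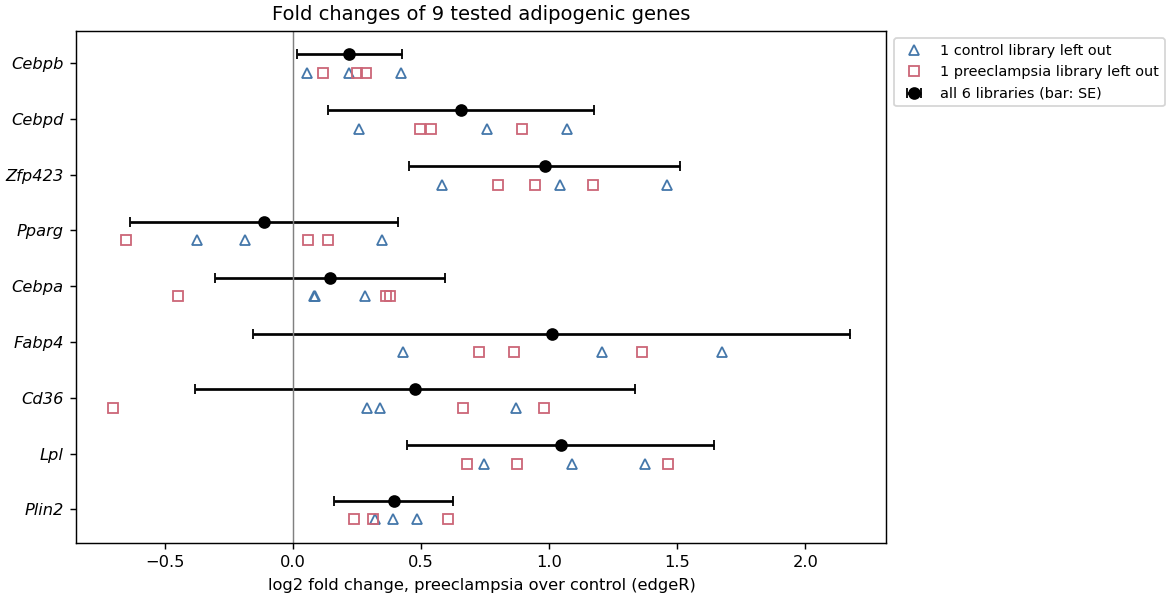
Log2 fold change of preeclampsia over control (horizontal axis) for the 9 tested genes from edgeR; black points with SE bars use all 6 libraries, and open symbols leave out 1 control or 1 preeclampsia library. Pparg, Cebpa and Cd36 fall on both sides of 0, and the other 6 genes remain above 0 in all 6 fits with 1 library left out.

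Leaving out 1 library also moved the size of the fold changes that kept their direction. Lpl ran from 0.68 without preeclampsia library 3 to 1.46 without preeclampsia library 1, and Plin2 from 0.24 without preeclampsia library 2 to 0.61 without preeclampsia library 1. Zfp423 ran from 0.58 to 1.46 and Cebpb from 0.06 to 0.42, in both cases without control libraries 1 and 3 in turn. Cebpd ran from 0.26 without control library 2 to 1.07 without control library 3. The order of the genes by fold change therefore differed between these fits.

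By mean FPKM over the 6 libraries the genes ran from Cebpd (73.1) through Cebpb (25.3), Plin2 (19.3), Lpl (17.6), Pparg (3.08), Cebpa (1.47), Cd36 (1.20), Zfp423 (0.46) and Fabp4 (0.41) to Adipoq (0.03). The only neighbours whose ranges did not overlap were Lpl and Pparg, Lpl being higher in 6 of 6 libraries. The order rests on the lengths used for FPKM, which could be checked in part. For Cebpb the deposited count per unit of FPKM implied a length of 3083 bases, 2.15 times the 1432 bases of the whole gene, and for Cebpd 692 bases, 0.61 times its 1139 bases. As counts per kilobase of gene span, scaled to CPM, these genes without introns stood at 36.6, 50.9 and 65.2 for Cebpb and 38.0, 13.0 and 53.8 for Cebpd in the control libraries. On that scale the preeclampsia libraries gave 54.5, 54.3 and 65.9 for Cebpb and 35.8, 60.8 and 65.2 for Cebpd. Cebpd was therefore not ahead of Cebpb on this scale in 4 of the 6 libraries. Zfp423 and Pparg were scaled with very different lengths, 18901 and 1019 bases, so that the places of these 2 genes in the order depend on them. The factor is the same in every library for a gene, so it does not enter the comparison of the groups.

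Preeclampsia libraries 2 and 3 were the 2 highest of the 6 in 5 genes, Cebpd, Zfp423, Fabp4, Lpl and Plin2. This pattern, looked for after the values were seen, held in 9.98% of all tested genes. Preeclampsia library 1 lay within the control range in 6 of the 9 tested genes (46.1% of all genes), below it in Cebpa and Cd36 and above it in Pparg. Log2 CPM, centred on each gene's mean, were closest for Cebpb and Plin2, with a root mean square difference of 0.35 over the 6 libraries, followed by Cebpa and Plin2 (0.38) and by Zfp423 and Lpl (0.54). Such a difference is small for any genes that vary little, as Cebpb and Plin2 did, and need not mean a shared pattern. Cebpa and Plin2 had opposite signs in preeclampsia library 3, at -0.40 and 0.38.

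Markers of macrophages moved with part of this pattern. The 19 macrophage markers in the table summed to 169, 145 and 28.6 FPKM in the control libraries and to 33.3, 490 and 243 in the preeclampsia libraries, so control library 3 and preeclampsia library 1 were low and preeclampsia libraries 2 and 3 high. All 18 tested markers had a fold change above 0, with a median of 0.97, and edgeR and DESeq2 called 0 of them. None was at 0 in all libraries, and Cx3cr1 was at 0 in 4 of the 6. Cd163, a scavenger receptor of macrophages, had the smallest p of the list, at 5.30, 4.23 and 0.20 FPKM in the control libraries and 1.54, 62.00 and 43.70 in the preeclampsia libraries (3.48, SE 1.53, edgeR adjusted p = 0.569). Its groups overlapped, as did those of Cd14 (0.95, SE 0.54) and Lyz2 (0.29, SE 1.05). Laptm5, a lysosomal protein of leukocytes, stood at 57.03, 48.71 and 9.52 FPKM in the control libraries and 11.13, 124.00 and 59.02 in the preeclampsia libraries. Fabp4 had its lowest values in the same 2 libraries as these markers and its highest in preeclampsia libraries 2 and 3, and Cd36 had its lowest value in preeclampsia library 1 and its highest in preeclampsia library 2. Among the controls Cd36 was lowest in library 1 (0.69 FPKM), where the summed markers were highest, and stood at 0.84 in library 3. By mean log2 CPM the markers were instead highest among the controls in library 2, at 2.97 against 2.93 in library 1. Cd36 was also highest among the controls in library 2 (1.54 FPKM). Lpl did not follow the markers among the controls, where library 3 was its highest and library 1 its lowest. Plin2, at 17.20 FPKM in control library 3, lay between the other controls there. Pparg was highest in preeclampsia library 1 (4.97 FPKM) and lowest in preeclampsia library 3 (1.82). The part of macrophages in these values was not tested, and in bulk RNA more cells of a type and more RNA per cell cannot be told apart.

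**Figure D3:**
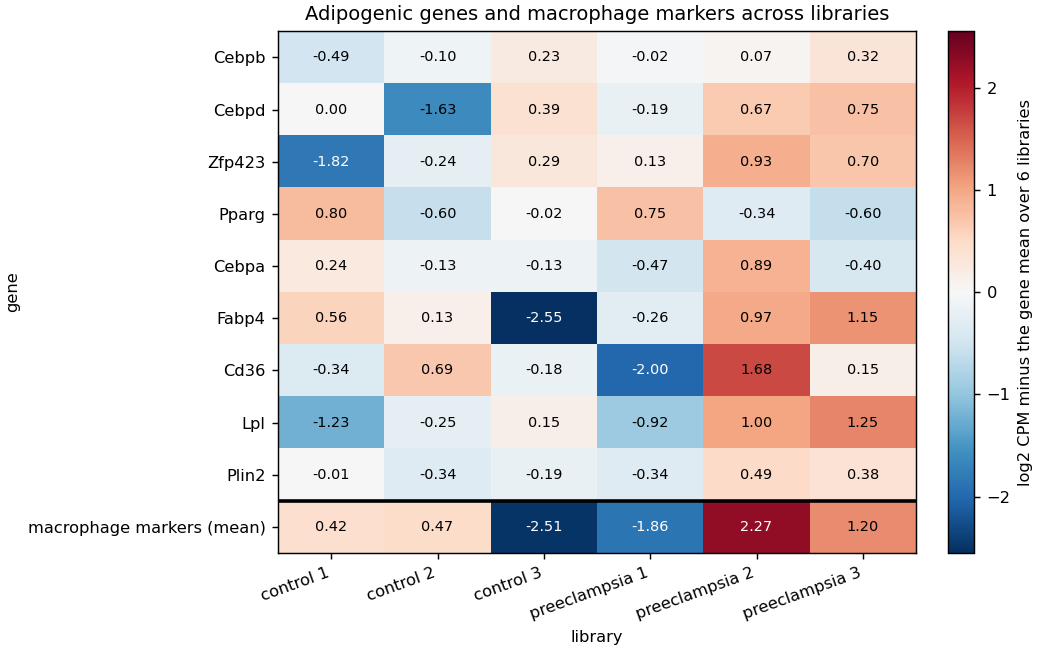
Log2 CPM minus the gene's mean over the 6 libraries (colour and printed value) for the 9 tested genes and, under the line, the mean of the 18 tested macrophage markers; columns are libraries. The markers range from -2.51 in control library 3 to 2.27 in preeclampsia library 2, and Pparg is highest in library 1 of each group, at 0.80 and 0.75.

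Other marker lists bear on what the cultures held. The 9 mesenchymal markers summed to 4038 to 5925 FPKM in the control libraries and 5439 to 7306 in the preeclampsia libraries. Most of each sum came from the collagen genes Col1a1 and Col1a2, with fold changes of 0.41 and 0.55. Of the 9, 6 had a fold change above 0 and 3 below, with a median of 0.15. DESeq2 called 1 of the 9, Pdgfra, where it called 1.71% of all genes with an adjusted p. Cd44, named after its values were seen, had a fold change of -0.78 (SE 0.49). The 9 endothelial markers in the table summed to 0.83 to 3.47 and 1.04 to 5.18 FPKM, with Pecam1, the junction protein of endothelium, at 0.03 FPKM or less; 4 of 6 tested had a fold change above 0, with a median of 1.02, and 0 were called. Cdh5, Kdr and Esam had fold changes of 1.28 (SE 0.71), 0.83 (SE 1.42) and 1.21 (SE 1.09) and Tek of -0.57 (SE 0.37). Tie1 and Vwf, named after their values were seen, had fold changes of 1.23 (SE 1.85) and -1.43 (SE 1.53). Cdh5 was at 0.04 FPKM or less. The part of endothelial cells in the values of Cd36 and Fabp4 was not tested. The 7 epithelial markers in the table had sums of 17.5 to 88.7 and 14.0 to 81.2 FPKM, and DESeq2 called Krt8 and Krt18 lower, while Krt7 had a fold change of 0.79. The 7 adipocyte markers in the table summed to 3.84 to 16.6 FPKM in the control libraries and 5.43 to 28.8 in the preeclampsia libraries. Adipoq, Plin1 and Cidec were under the filter on low counts. All 4 that were tested had a fold change above 0, against 51.7% of all genes, with a median of 1.06. The groups overlapped in each of them except Lipe, and edgeR called 0 and DESeq2 1 of the 4, Lipe. Cfd, the adipsin gene, stood at 0.76, 1.03 and 0.25 FPKM in the control libraries and 0.18, 4.03 and 1.37 in the preeclampsia libraries. Its fold change was 1.49 (SE 1.06, edgeR adjusted p = 0.748). Lep, the leptin gene, accounted for most of the sum of the adipocyte markers in control library 1 and preeclampsia library 3. It stood at 13.21, 0.59 and 1.57 FPKM in the control libraries and 0.87, 7.64 and 21.31 in the preeclampsia libraries. Its groups overlapped (log2 fold change 0.94, SE 1.39, edgeR adjusted p = 0.887).

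Genes whose profile over the 6 libraries was nearest to a member were found by the root mean square difference of centred log2 CPM among 10676 or 10677 genes with a mean of at least 1 FPKM. The nearest to Pparg were Camk2g (0.15), Rragb, listed as RragB (0.18), and Smarca1 (0.19). Those nearest to Cd36 were the matrix genes Fbln2 (0.29) and Smoc1 (0.35) and Sh3tc1 (0.42). Fbln2, which encodes fibulin 2, stood at 76.54, 215.20 and 75.82 FPKM in the control libraries and 30.49, 243.32 and 141.46 in the preeclampsia libraries, lowest, as Cd36 was, in preeclampsia library 1. Camk1d (0.28), Plxnc1 (0.41) and Pcdhga2 (0.43) were nearest to Fabp4.

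The wider machinery was followed in 9 lists of regulators, inhibitors, lipid genes and fat cell products, which held 153 genes besides the 10. Of these, 140 were in the table and 126 were tested, 72 with a fold change above 0 and 54 below, with a median of 0.04. edgeR called 0 of them. In 19 (15.1%) the groups did not overlap, against 15.6% of all genes. An unadjusted p under 0.05 was found in 18 (14.3%), 12 higher and 6 lower, against 9.19% of all genes. DESeq2 called 5 of the 128 with an adjusted p (3.91%, against 1.71% of all genes), Pdgfra, Tmem26 and Lipe higher and Hes1 and Foxo1 lower.

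**Figure D4:**
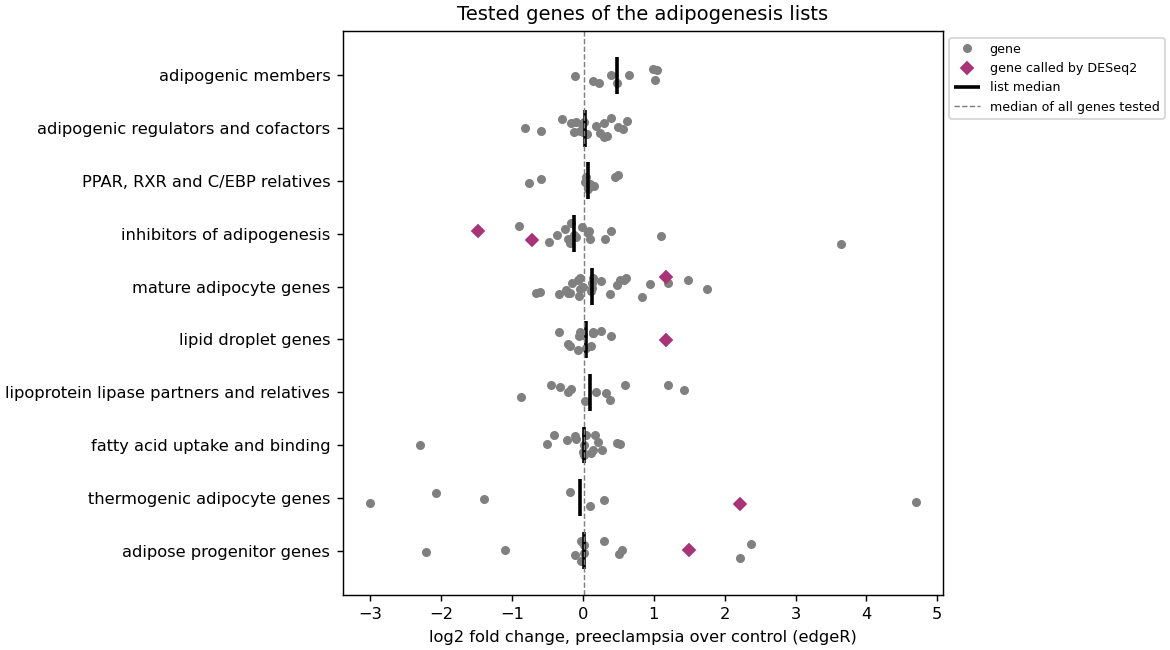
Log2 fold change of preeclampsia over control from edgeR (horizontal axis) for the tested genes of each list; grey points are genes, diamonds those called by DESeq2, black bars list medians, and the dashed line the median of all tested genes. The medians lie between -0.13 and 0.13 except that of the 9 adipogenic genes, at 0.48; the 4 tested adipocyte markers, not drawn, have a median of 1.06.

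Upstream regulators and cofactors had no called gene among 20 tested, 11 higher and 9 lower. Srebf1, a regulator of lipid synthesis that enhances Pparg activity, stood at 2.14 ± 0.085 FPKM in controls and 2.97 ± 0.322 in the model (log2 fold change 0.49, SE 0.14, edgeR adjusted p = 0.458). Klf5, which C/EBP factors induce and which acts on Pparg, stood at 1.51, 1.52 and 1.24 FPKM in the control libraries and 2.13, 1.99 and 2.17 in the preeclampsia libraries (0.57, SE 0.19). Klf6 stood at 44.4 ± 7.71 and 29.3 ± 6.63 FPKM (-0.59, SE 0.21), and the Mediator subunit gene Med1 at 63.5 ± 2.65 and 63.3 ± 6.26 FPKM. On scaled CPM the groups did not overlap in 3 of the 20, against 15.6% of all genes. Srebf1 and Klf5 were higher, and Ncoa2, named after its values were seen, was lower (-0.17, SE 0.11).

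Among the relatives and partners of the PPAR and C/EBP factors, 9 were tested, 7 higher and 2 lower, and 0 were called. Ppard, which encodes the widely expressed PPAR delta, stood at 13.80, 13.60 and 14.74 FPKM in the control libraries and 15.36, 22.87 and 20.07 in the preeclampsia libraries (0.50, SE 0.19, edgeR adjusted p = 0.505). All 3 preeclampsia libraries were above the controls. The RXR partners Rxra and Rxrb stood at 2.94 ± 0.367 and 36.0 ± 6.19 FPKM in the control group and at 3.93 ± 1.00 and 37.0 ± 2.87 in the preeclampsia group. Cebpg, a C/EBP member without an activation domain of its own, stood at 48.2 ± 2.65 and 48.8 ± 4.09 FPKM.

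Among the inhibitors of adipogenesis the smallest edgeR p was that of Hes1, a repressor downstream of Notch. Hes1 stood at 11.19, 9.49 and 7.54 FPKM in the control libraries and at 3.20, 3.50 and 3.33 in the preeclampsia libraries, without overlap. Its log2 fold change was -1.48 (SE 0.22), with an adjusted p of 0.313 in edgeR and 9.1e-06 in DESeq2. Foxo1, which restrains Pparg, stood at 1.42, 1.55 and 1.42 FPKM in the control libraries and 1.01, 0.91 and 0.71 in the preeclampsia libraries (-0.72, SE 0.18, adjusted p = 0.433 in edgeR and 0.0486 in DESeq2). Of the list's 19 tested genes, 7 were higher and 12 lower, with a median of -0.13. Its most abundant genes, Wnt5a and Ctnnb1, stood at 140 ± 42.8 and 34.0 ± 2.65 FPKM in the control group and 115 ± 49.3 and 36.0 ± 3.77 in the preeclampsia group.

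Zfp521 and Dlk1, also inhibitors, were picked out after their values were seen. Zfp521, which opposes the action of Zfp423, stood at 5.29, 4.80 and 5.22 FPKM in the control libraries and 6.91, 6.18 and 6.88 in the preeclampsia libraries (0.40, SE 0.12, edgeR adjusted p = 0.461). Both zinc finger genes thus had fold changes above 0, and neither was called. Dlk1, the preadipocyte protein Pref-1, stood at 0.38, 0.04 and 0.85 FPKM in the control libraries and 13.89, 0.93 and 1.24 in the preeclampsia libraries, its fold change resting mostly on preeclampsia library 1.

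In the list of mature fat cell genes 28 were tested, 17 higher and 11 lower, with a median of 0.13 and 0 called by edgeR. Lipe, which encodes hormone-sensitive lipase, stood at 2.37, 2.16 and 2.85 FPKM in the control libraries and 3.98, 6.38 and 6.03 in the preeclampsia libraries. The groups did not overlap, and the log2 fold change of 1.17 (SE 0.29) had an adjusted p of 0.433 in edgeR and 0.0243 in DESeq2. Acly, which makes acetyl-CoA for lipid synthesis, stood at 96.4 ± 9.04 and 124 ± 11.1 FPKM (0.39, SE 0.14, edgeR adjusted p = 0.483). The desaturase gene Scd2 stood at 304.13, 137.11 and 526.91 FPKM in the control libraries and 498.08, 471.47 and 472.84 in the preeclampsia libraries. The adiponectin receptor gene Adipor1 stood at 387 ± 32.4 and 323 ± 50.2 FPKM, so that the receptor was abundant where its ligand Adipoq was near 0. On scaled CPM the groups did not overlap in 3 of the 28, against 15.6% of all genes. Lipe and Acly were higher and Adipor1 lower (-0.24, SE 0.14).

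Of the lipid droplet genes 15 were tested, 9 higher and 6 lower, and Lipe was the one DESeq2 called. Plin3, the other perilipin found in most cells, stood at 26.9 ± 5.16 and 29.1 ± 7.70 FPKM, and Abhd5, the activator of the triglyceride lipase, at 34.1 ± 7.31 and 36.9 ± 4.76 FPKM. Pnpla2, that lipase, stood at 24.56, 19.38 and 22.37 FPKM in the control libraries and 14.82, 19.14 and 17.71 in the preeclampsia libraries (-0.34, SE 0.18, edgeR adjusted p = 0.636), opposite in sign to Plin2 and Lipe.

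Lipoprotein lipase must be folded in the secretory pathway and is then held and inhibited outside the cell. Of its 12 tested partners and relatives 7 were higher and 5 lower, and 0 were called. Lmf1, the factor that matures the enzyme, stood at 31.22, 35.48 and 42.72 FPKM in the control libraries and 44.49, 44.21 and 45.92 in the preeclampsia libraries (0.32, SE 0.15, edgeR adjusted p = 0.591), without overlap. Sel1l, which acts with it, stood at 212 ± 32.1 and 185 ± 28.3 FPKM, the heparan sulphate proteoglycan gene Hspg2 at 292 ± 47.7 and 328 ± 33.6 FPKM, and the receptor gene Lrp1 at 93.3 ± 16.8 and 137 ± 33.6 FPKM (0.59, SE 0.24). Gpihbp1, the anchor that carries the enzyme across endothelium, named for its role after its values were seen, was at 0.03 FPKM in 1 control library and listed at 0 in the other 5.

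Angptl4, an inhibitor of lipoprotein lipase and a PPAR target, was picked out after its values were seen. It stood at 2.86, 3.02 and 53.84 FPKM in the control libraries and 6.38, 57.16 and 66.95 in the preeclampsia libraries. Control library 3 and preeclampsia libraries 2 and 3 were high, the same 3 libraries in which Lpl was highest. The groups overlapped, with a log2 fold change of 1.21 (SE 1.34, edgeR adjusted p = 0.848).

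For the uptake and binding of fatty acids 17 genes were tested, 10 higher and 7 lower, and 0 were called by edgeR or DESeq2. Fabp3, the carrier typical of muscle, stood at 123 ± 65.3 and 149 ± 61.3 FPKM, far above Fabp4 in every library, and the caveolin gene Cav1 at 289 ± 49.4 and 268 ± 138 FPKM. The acyl-CoA synthetase genes Acsl1 and Acsl5 stood at 9.54 ± 2.36 against 6.59 ± 1.09 FPKM (-0.51, SE 0.20) and 53.4 ± 5.83 against 39.8 ± 7.91 FPKM (-0.41, SE 0.17), with adjusted p of 0.515 and 0.532 in edgeR. Acsl1 overlapped between the groups in FPKM but not in scaled CPM, and the groups of Acsl5 overlapped on neither scale.

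Thermogenic genes showed no common direction, with 4 of 8 tested genes higher. Tmem26, a surface marker of beige fat cells, stood at 5.10, 3.91 and 9.31 FPKM in the control libraries and 33.59, 25.70 and 24.53 in the preeclampsia libraries (2.21, SE 0.34, adjusted p = 0.313 in edgeR and 6.3e-07 in DESeq2). Adrb3, the beta-3 adrenergic receptor gene, was at 0.43, 0.49 and 0.31 FPKM in the control libraries and 0.07, 0.09 and 0.11 in the preeclampsia libraries (-2.07, SE 0.50, adjusted p = 0.431 in edgeR and 0.108 in DESeq2). Prdm16, a determinant of brown fat, stood at 13.1 ± 12.1 and 5.16 ± 7.24 FPKM, and its groups overlapped.

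Among 13 adipose progenitor genes, 8 higher and 5 lower, Pdgfra had the smallest edgeR p. This receptor gene, which marks progenitors of white fat and other stroma, stood at 99.76, 97.70 and 116.11 FPKM in the control libraries and 225.46, 235.97 and 410.59 in the preeclampsia libraries. Every preeclampsia library was above the controls, preeclampsia library 1 included, unlike in Lpl and Plin2. The log2 fold change was 1.50 (SE 0.27), with an adjusted p of 0.373 in edgeR and 0.00013 in DESeq2. Cd24 stood at 5.06 ± 5.30 and 25.6 ± 20.4 FPKM (2.37, SE 0.98), with overlap, and the abundant genes Thy1 and F3 had fold changes of 0.02 and 0.01. On scaled CPM the groups did not overlap in 2 of the 13 genes, against 15.6% of all genes. Pdgfra was higher, and Ccn5, named after its values were seen, was lower (-1.10, SE 0.56).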

How the data were processed

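Poly(A)-enriched RNA of cultured amniotic fluid cells was sequenced in 6 libraries, 3 per group, per the labels' protocols. Tools in the submitters' processing notes are HISAT2 2.2.1, StringTie 2.1.6, cutadapt 1.9 and FastQC. No source used here gives the build; gene coordinates are the table's, whose sequence names are those of mRatBN7.2. Nor does any say whether the unique molecular identifiers were collapsed. Per the file headers, the authors deposited counts and FPKM for each gene in every library; FPKM equalled the scaled count within 0.015 on the log2 scale in 2894 genes over 20 FPKM.

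Counts were filtered (filterByExpr), scaled by TMM and tested over all genes with edgeR 4.0.16 in R 4.3.3, with group as the only term. Alternatives were DESeq2 1.42.0, other scalings, no filter, a replicate block, 1 library left out and limma 3.58.1 on log2(FPKM + 1) or log2(FPKM + 0.1) for genes with a mean of at least 1 FPKM. Scripts were tested on simulated data. Every pair of libraries differed beyond sampling noise, by a chi-square of at least 130 per degree of freedom. Limits for a count of 0 take 3 counts.

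The genes and lists were chosen with earlier results of these data known. Beyond the 10 genes, each list's 2 most abundant genes and its 2 with the smallest p are named, as are the 3 nearest profiles of Fabp4, Cd36 and Pparg. Markers of osteogenic and chondrogenic cells are in the closing section.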

Additional observations from a re-analysis of the deposited data

How the results depend on the processing

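The count of adipogenic genes called was 0 under all 14 alternatives run. Over all genes, edgeR called 0, DESeq2 302 and limma on log2(FPKM + 1) with no filter 1, and edgeR with 1 library left out called between 0 and 2. The smallest adjusted p among 122 alternative fold changes of the 9 genes was 0.274, that of Plin2 in edgeR without preeclampsia library 1. Of these 122, 114 kept their direction. The 8 that turned were in 3 genes, whose ranges with 1 library left out were -0.65 to 0.35 (Pparg), -0.45 to 0.38 (Cebpa) and -0.70 to 0.98 (Cd36). Pparg went from -0.11 to 0.35 without control library 1 and to 0.06 and 0.14 without preeclampsia libraries 2 and 3. Cebpa went from 0.14 to -0.45 without preeclampsia library 2 and to -0.027 with limma on log2(FPKM + 0.1). Cd36 went from 0.48 to -0.70 without preeclampsia library 2, to -0.045 with limma on log2(FPKM + 0.1) and to -0.075 with the replicate block. The cause was not tested.

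Whether the replicate numbers pair the libraries is not given in the sample titles. Deviations from the group means correlated at 0.048, 0.041 and 0.010 between same-numbered libraries and at -0.080 to 0.035 between the others. Control libraries 1 and 2 correlated best with the preeclampsia library of the same number, and control library 3 with preeclampsia library 2. With the replicate block edgeR called 0 genes, and Lpl and Zfp423 had fold changes of 0.89 and 1.18 with adjusted p of 0.563 and 0.613. Their unadjusted p in that edgeR fit were 0.014 and 0.028, and no other of the 9 tested genes was under 0.05. Unadjusted p under 0.05 also came from edgeR with 1 library left out. Without preeclampsia library 1 they were 0.0058 for Plin2 and 0.012 for Lpl, and without control library 3 it was 0.040 for Zfp423. Low counts, of at most 7 and 23, limit what can be read from Adipoq and Fabp4.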

Other observations

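Genes of the other mesenchymal fates were read from 9 osteogenic and chondrogenic markers in the table. Of 6 tested, 1 was higher and 5 lower, the median on the log2 scale being -0.67, and edgeR and DESeq2 called 0. Alpl, the bone-type alkaline phosphatase gene, was at 0.193 ± 0.078 FPKM in controls against 0.080 ± 0.010 in the model (SD, n = 3 each), a log2 fold change of -1.28 (SE 0.44, edgeR adjusted p = 0.478). Runx2, which directs bone formation and opposes adipogenesis, stood at 16.5 ± 1.37 and 14.2 ± 1.42 FPKM (-0.21, SE 0.14), and Spp1, the osteopontin gene, at 57.1 ± 44.1 and 26.7 ± 22.6 FPKM. Sp7, the osteoblast factor and the 1 gene above 0, named after its values were seen, stood at 1.98, 20.77 and 1.53 FPKM in the control libraries and 12.17, 24.35 and 20.15 in the preeclampsia libraries (1.26, SE 1.01, edgeR adjusted p = 0.779).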
